A study of Caenorhabditis elegans with 2 samples.

Results

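The chromatin genes described here are 74 protein-coding genes of the nematode Caenorhabditis elegans, out of 19973 protein-coding genes on the 6 nuclear chromosomes. They were chosen by name: every gene called set-, jmjd-, hda-, hpl-, swsn-, met-, mes- or sir-2. with a number, together with utx-1, rbr-2, spr-5, lsd-1, let-418, chd-3 and isw-1. The classes follow the names: the 37 set-, met- and mes- genes other than mes-1 were classed as writers of histone methylation, although a mark was assigned to only some of them, 24 as erasers of histone methylation or acetylation, 10 as chromatin remodellers and 2 as readers. The remaining member, mes-1, shares the name mes with chromatin genes but encodes a receptor-like transmembrane protein, and it was kept because the name rule takes it in. Among the erasers, 5 jmjd- genes were also assigned no mark.

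Binding was that of CEH-82, a homeobox protein, measured by chromatin immunoprecipitation and sequencing of the recovered DNA (ChIP-seq). The animals were whole larvae of mixed sex at L1, the stage that hatches from the egg. The 2 biological replicates formed 1 group, of strain OP212 with the genotype unc-119(ed3) III; ddEx58, in which CEH-82 carries an enhanced green fluorescent protein (eGFP) tag. The name ddEx58 is that of an extrachromosomal array, a form of transgene that can be present in many copies and can be lost from some cells, and both replicates carried it. Whole animals were used, so a peak cannot be placed in a cell type, and no peak list from another strain, stage or mock immunoprecipitation was analysed here.

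Histone tails carry methyl and acetyl groups that writers add, erasers remove and readers bind, and remodellers use ATP to slide, evict or exchange nucleosomes. In C. elegans these proteins are known for transcriptional memory across generations, for the split between germline and soma, and for vulval and neuronal fate decisions. SET domain proteins transfer methyl groups to lysines, many Jumonji (JmjC) proteins and LSD-type proteins remove them, and histone deacetylases and sirtuins remove acetyl groups. SWI/SNF, Mi-2 and ISWI are the main families of remodelling ATPases.

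A gene was called bound when the summit of a peak in the authors' optimal list (3913 peaks, thresholded by the irreproducible discovery rate) lay between 1000 bp before and 200 bp after the 5' end of any of its transcripts. The signal given for a peak is the authors' own value per peak. It ranks peaks within a list, and each list has its own scale. Each replicate's top list is its 3913 strongest peaks. No read counts come with the peaks, so depth is unknown. Intervals on shares cover counting error only.

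The sequences below are those at the summits of the 6 members with the highest signal and of swsn-3, the remodeller with the highest signal, which was added after its value was seen. The 6 are shown because their signals are the highest among the chromatin genes, and all because their base content can be read against the motif counts given further on. The peaks of met-1 and jmjd-1.2, not shown, had higher signals than that of swsn-3. Each runs from 100 bp before to 100 bp after the summit, 5' to 3' on the strand of the named gene, in ce11 (WBcel235) coordinates, read from the RefSeq genome of that assembly. Capitals mark the letters GAGAGA on either strand and, in the same way, GCGCAG, the E-box CACGTG and the homeodomain core TAATTA.
set-16, chrIII:13643644-13643844, plus strand: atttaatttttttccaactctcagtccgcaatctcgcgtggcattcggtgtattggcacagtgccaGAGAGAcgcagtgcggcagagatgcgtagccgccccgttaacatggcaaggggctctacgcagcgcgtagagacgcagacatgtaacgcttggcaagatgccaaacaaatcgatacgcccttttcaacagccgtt
set-26, chrIV:16656344-16656544, minus strand: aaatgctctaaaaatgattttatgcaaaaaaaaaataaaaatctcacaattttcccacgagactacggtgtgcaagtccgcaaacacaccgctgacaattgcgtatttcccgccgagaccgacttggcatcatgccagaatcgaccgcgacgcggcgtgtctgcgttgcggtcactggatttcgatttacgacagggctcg
set-4, chrII:6331513-6331713, minus strand: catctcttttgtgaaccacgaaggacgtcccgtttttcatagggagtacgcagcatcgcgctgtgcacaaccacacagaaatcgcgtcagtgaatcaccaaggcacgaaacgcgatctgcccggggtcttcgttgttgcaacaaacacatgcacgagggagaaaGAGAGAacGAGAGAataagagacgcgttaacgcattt
set-21, chrIV:4390574-4390774, plus strand: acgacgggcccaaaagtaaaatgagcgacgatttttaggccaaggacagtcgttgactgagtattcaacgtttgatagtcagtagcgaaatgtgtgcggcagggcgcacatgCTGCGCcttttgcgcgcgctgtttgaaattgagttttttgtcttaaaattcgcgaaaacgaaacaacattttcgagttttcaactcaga
mes-2, chrII:14383755-14383955, plus strand: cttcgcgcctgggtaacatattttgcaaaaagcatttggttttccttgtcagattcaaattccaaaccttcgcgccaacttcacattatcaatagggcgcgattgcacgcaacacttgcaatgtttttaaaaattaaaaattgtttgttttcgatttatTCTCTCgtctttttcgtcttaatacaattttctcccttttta
jmjd-4, chrIII:10334040-10334240, minus strand: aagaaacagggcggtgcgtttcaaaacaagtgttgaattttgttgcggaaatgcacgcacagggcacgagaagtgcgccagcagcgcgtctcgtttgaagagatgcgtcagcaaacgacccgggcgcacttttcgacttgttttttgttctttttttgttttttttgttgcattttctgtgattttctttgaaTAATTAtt
swsn-3, chrIII:2768733-2768933, minus strand: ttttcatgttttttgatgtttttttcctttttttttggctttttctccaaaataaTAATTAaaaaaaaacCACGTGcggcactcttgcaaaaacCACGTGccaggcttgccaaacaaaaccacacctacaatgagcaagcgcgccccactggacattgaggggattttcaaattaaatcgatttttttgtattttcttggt
Of these 7 windows, those of set-16, set-4 and mes-2 held GAGAGA, with 2 copies at set-4. The window of set-21 held 1 GCGCAG, that of jmjd-4 held 1 TAATTA and that of swsn-3 held 2 copies of CACGTG and 1 TAATTA. The window of set-26 held none of the 4 sequences, and it contained 19 CG dinucleotides, the highest number of the 7, against 6 at swsn-3.

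CEH-82 peaks lay at the promoters of 26 of the 74 chromatin genes, 35.1% (exact 95% interval 24.4 to 47.1%), where 16.0% of all protein-coding genes had such a peak. The top list of replicate 1 gave 24 members, against 16.0% of all genes, and that of replicate 2 gave 26, against 15.7%. The mean share of members over the replicates was 33.8% ± 1.91 (SD, n = 2). With both top lists 22 of the 74 members were found, and 2742 of the 19973 protein-coding genes. No test was made of the list as a whole, since its members were chosen with earlier results of these data known.

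The share was highest for remodellers and lowest for writers, with intervals that overlap. Of the 10 remodellers 6 were bound (60.0%, exact 95% interval 26.2 to 87.8%), of the 24 erasers 10 (41.7%, 22.1 to 63.4%) and of the 37 writers 10 (27.03%, 13.8 to 44.1%). The replicates' top lists gave 65.0% ± 7.07 of remodellers, 35.4% ± 2.95 of erasers and 27.03% ± 0 of writers (SD, n = 2). In both top lists the order of the classes was the same. Neither of the readers hpl-1 and hpl-2, the worm homologues of heterochromatin protein HP1, had a peak, nor had mes-1. The place of the writers depended on which of them were counted. Of the 15 writers in the groups by mark or complex described below, 7 were bound, a higher share than that of all erasers. Of the 22 other set genes 3 were bound, and of all protein-coding genes 16.0%. The differences between classes were not tested. With only the 1956 strongest peaks of the optimal list, 5 of 10 remodellers, 6 of 24 erasers and 7 of 37 writers were bound. Of all protein-coding genes 9.41% were bound with those peaks.

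**Figure D1:**
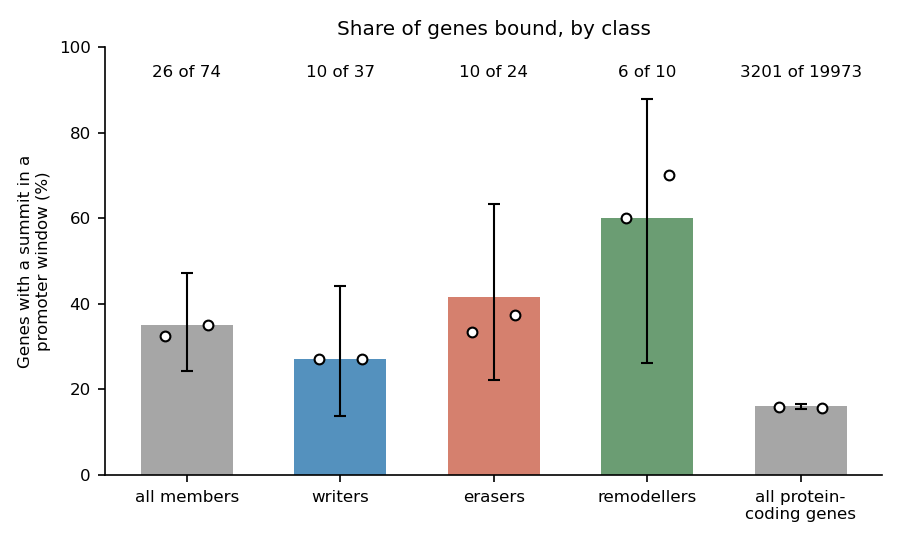
Share of genes with an optimal summit in a promoter window, in percent, for all members, each of the 3 main classes and all protein-coding genes. Bars show the optimal list, black lines the exact 95% interval and white points the top lists of replicate 1 (left) and replicate 2 (right). The remodeller bar is at 60.0% and the bar of all protein-coding genes at 16.0%, and the intervals of the 3 classes overlap.

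The bound writers had the highest median signal of the 3 classes, a difference that was not tested. The median signal of the 10 bound writers was 149, against 63.4 for the 10 bound erasers, 79.4 for the 6 bound remodellers and 63.8 for all 3201 bound protein-coding genes. The 5 strongest peaks at any member were all at writers. Those of set-26 and set-21 lay closer to another gene's start, and that of set-16 was shared with drr-2. Among the 1956 strongest peaks of the optimal list were those of 5 of the 6 bound remodellers, 7 of the 10 bound writers and 6 of the 10 bound erasers. By this measure the remodellers, not the writers, had the highest share (83.3%). For all bound members it was 69.2%, against 58.7% of all bound genes.

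The strongest peak was that of set-16, which encodes the MLL-type methyltransferase of histone H3 lysine 4 (H3K4). It lay at chrIII:13643653-13643812 with a signal of 303 (rank 38 of 3913), with 183 (rank 41) in the list of replicate 1 and 118 (rank 37) in that of replicate 2. The summit was 172 bp upstream of set-16 and 174 bp upstream of drr-2, a gene on the opposite strand, so it stood midway between the 2 starts. The other main H3K4 writer, set-2, the SET1 subunit of COMPASS, had a much weaker peak. Its signal was 50.5 (rank 2208) at chrIII:4930342-4930601, 268 bp upstream, with 35.1 in replicate 1 (rank 1879) and 11.9 in replicate 2 (rank 3733). The third, set-17, was not bound.

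The closely related pair set-26 and set-9 differed. Their products bind trimethylated H3K4 and carry a SET domain. At set-26 the peak had a signal of 195 (rank 152) at chrIV:16656377-16656489, 561 bp upstream, with 114 in replicate 1 (rank 175) and 78.4 in replicate 2 (rank 149). The same summit lay 169 bp upstream of tsr-2, which is closer to it, so assignment to the nearest start gives this peak to tsr-2. No peak of the pooled list, strong or weak, lay in the window of set-9. How the authors treated reads that map to more than 1 place is not given in the sources used here, and near-identical copies can lose reads in that step.

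Both genes for enzymes of H4 lysine 20 methylation had a peak in the pooled list, and 1 of them was bound. At set-4, the SUV4-20 homologue, the signal was 189 (rank 166) at chrII:6331551-6331662, 272 bp upstream, with 115 in replicate 1 (rank 171) and 76.4 in replicate 2 (rank 164). The peak lay in no other protein-coding gene's window. At set-1, the PR-SET7 homologue, the pooled list had a weak peak with a signal of 13.6, and replicate 2 alone placed a peak of that window in its top list.

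The H3K27 methyltransferase complex, the worm counterpart of Polycomb repressive complex 2 (PRC2), had peaks at 2 of its 3 genes. Of all protein-coding genes 16.0% had one. At mes-2, the catalytic E(z) homologue, the signal was 155 (rank 294) at chrII:14383725-14383984, 118 bp upstream, with 101 in replicate 1 (rank 248) and 48.9 in replicate 2 (rank 516). At mes-6, the ESC homologue, it was 68.5 (rank 1479) at chrIV:8511131-8511390, 23 bp upstream, with 43.9 and 25.8 in the replicates. This summit was also in the window of tag-77, 713 bp upstream of it. The third gene, mes-3, which has no clear homologue outside nematodes, had only a weak pooled peak with a signal of 12.4.

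Of the H3K36 methyltransferase genes, met-1, the SETD2 homologue, was bound and mes-4, the NSD homologue that acts in the germline, was not. The met-1 peak had a signal of 143 (rank 367) at chrI:4253946-4254205, 121 bp upstream, with 76.2 in replicate 1 (rank 495) and 72.7 in replicate 2 (rank 190). None of the 3 genes grouped here as H3K9 methyltransferases was bound, where 16.0% of all protein-coding genes were. Neither met-2, the SETDB1 homologue, nor set-25 nor set-32 had a pooled summit of any strength in its window.

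Of the 22 set genes outside these groups, 3 were bound, a share not above the 16.0% of all protein-coding genes. The first was set-21, at chrIV:4390584-4390687 with a signal of 172 (rank 217), 106 in replicate 1 (rank 214) and 67.3 in replicate 2 (rank 233). This summit lay 170 bp upstream of set-21 and 84 bp upstream of rpl-7A, a ribosomal protein gene on the opposite strand that is closer to it. The others were set-20 (signal 51.9, chrX:5686123-5686382, 95 bp upstream) and set-6 (33.9, chrX:11974776-11975035, 227 bp upstream). The product of set-6 has also been described as an H3K9 methyltransferase, and the gene was not placed in that group. Replicate 2 placed set-6 outside its top list, at rank 4272. Of the 15 writers in the groups named by mark, 7 were bound. No summit of the pooled list lay in the windows of set-5, set-8, set-11, set-12, set-13, set-14, set-15, set-18, set-19, set-22, set-23, set-24, set-27, set-28, set-29 or set-31.

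**Figure D2:**
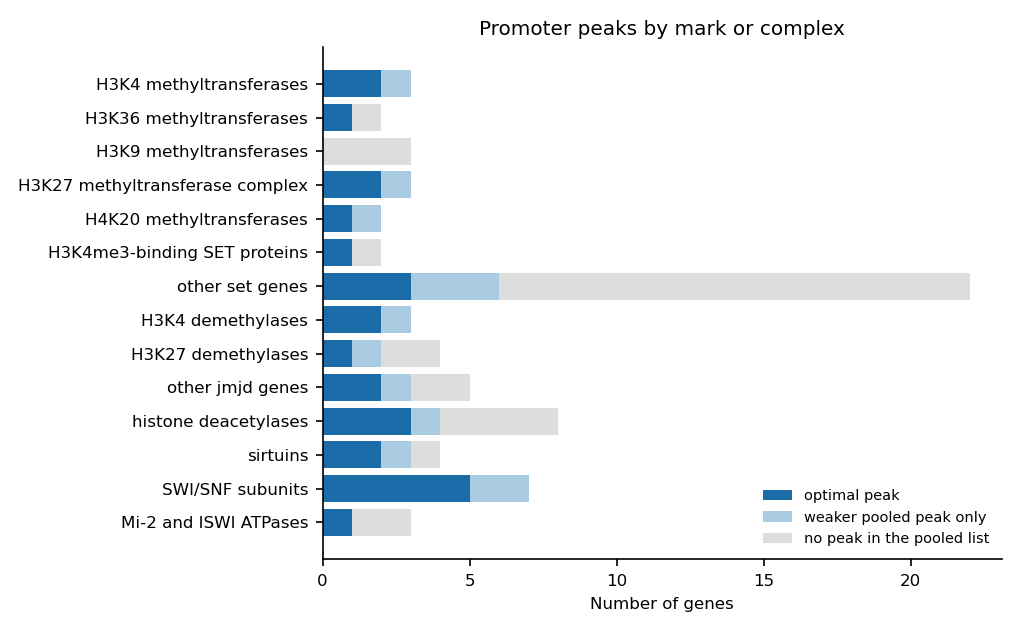
Number of genes in each group by mark or complex, divided into those with an optimal peak in a promoter window, those with only a weaker peak of the pooled list, and those with no peak of the pooled list. Each of the 7 SWI/SNF genes had a summit of the pooled list, 5 of them in the optimal list, and none of the 3 genes grouped as H3K9 methyltransferases had one. The pooled list holds peaks and background. Of all protein-coding genes 16.0% had an optimal summit and 33.7% a pooled one.

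Among the erasers, 5 of the 12 genes of the Jumonji and LSD types were bound, against 16.0% of all protein-coding genes. The strongest was jmjd-4, a JmjC domain gene, at chrIII:10334010-10334269 with a signal of 151 (rank 316), 91.2 in replicate 1 (rank 327) and 59.0 in replicate 2 (rank 335). It lay 122 bp upstream of jmjd-4 and 137 bp upstream of mev-1, which encodes a succinate dehydrogenase subunit. At jmjd-1.2, the homologue of the demethylase PHF8, the signal was 139 (rank 389) at chrIV:4660466-4660533, 500 bp upstream, with 76.3 in replicate 1 and 61.0 in replicate 2. That peak also lay in the windows of mrps-21 and F29B9.11, and it was closer to F29B9.11, at 290 bp.

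The H3K4 demethylase genes rbr-2 and lsd-1 were bound, and spr-5 had only a weak pooled peak with a signal of 10.3. At rbr-2, the KDM5 homologue, the signal was 99.7 (rank 763) at chrIV:10919270-10919529, 670 bp upstream, with 57.7 in replicate 1 and 48.7 in replicate 2. At lsd-1 it was 29.4 (rank 3716) at chrX:11948239-11948498, 475 bp upstream, the lowest of any bound member. Its peak was outside the top list of replicate 1, at rank 4881, and inside that of replicate 2, at rank 2941.

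Of the H3K27 demethylase genes, utx-1, the UTX homologue, was bound and jmjd-3.1, jmjd-3.2 and jmjd-3.3 were not. The utx-1 peak had a signal of 30.6 (rank 3583) at chrX:8556686-8556945, 330 bp upstream. The replicates differed here, with rank 6481 in replicate 1 and rank 2084 in replicate 2, so only replicate 2 placed it in its top list. At jmjd-3.1 a weaker pooled peak had a signal of 21.5, and jmjd-1.1 had one of 10.1. No summit of any strength lay in the windows of jmjd-2, jmjd-3.2, jmjd-3.3 or jmjd-5.

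Of the 8 histone deacetylase genes, 3 were bound, where 16.0% of all protein-coding genes were. At hda-11, the HDAC11 homologue, the signal was 64.4 (chrV:10526007-10526266, 47 bp upstream), with 43.6 in replicate 1 and 20.7 in replicate 2. At hda-6, the homologue of the mostly cytoplasmic HDAC6, it was 62.4 (chrIV:5364221-5364480, 45 bp upstream), with 35.1 and 25.9. Both peaks were near the start of the deacetylase gene and also lay in the window of a neighbour, C35A5.8 and F41H10.4. At hda-1, the class I deacetylase of NuRD, the summit lay 993 bp upstream, at the edge of the window, and 267 bp upstream of ril-1. Its signal was 47.5 (chrV:14524266-14524525), with rank 2026 in replicate 1 and rank 4741, outside the top list, in replicate 2. A weaker pooled peak at hda-4 had a signal of 13.6, and hda-2, hda-3, hda-5 and hda-10 had no peak in their windows.

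Of the 4 sirtuin genes, sir-2.1 and sir-2.2 were bound, where 16.0% of all protein-coding genes were. At sir-2.1, the SIRT1 homologue known from studies of lifespan, the signal was 46.2 (chrIV:10366165-10366424, 66 bp upstream), with 32.8 in replicate 1 and 12.4 in replicate 2. At sir-2.2, which encodes a mitochondrial sirtuin, it was 94.5 (chrX:13328928-13329187, 198 bp upstream), with 61.9 and 31.3. The sir-2.2 gene has 5 annotated 5' ends, and the summit was not in the window of the outermost one. Its neighbour sir-2.3 had only a weak pooled peak with a signal of 10.3, and sir-2.4 had none.

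SWI/SNF, which slides and evicts nucleosomes, had a summit of the pooled list at every one of its genes in the name rule. That list holds peaks and background, and 33.7% of all protein-coding genes had such a summit. Of the 7 subunit genes 5 were bound, against 16.0% of all protein-coding genes, and swsn-2.2 and swsn-9 had weaker pooled peaks. The one at swsn-2.2 had a signal of 17.1 (rank 6261), and no peak of replicate 1 overlapped it. The highest was swsn-3, an HMG domain subunit, at chrIII:2768703-2768962 with a signal of 130 (rank 450), 81.8 in replicate 1 (rank 431) and 48.2 in replicate 2 (rank 534), 154 bp upstream. At swsn-7, which encodes the ARID subunit of the PBAF form, the signal was 89.1 (chrII:8028387-8028646, 754 bp upstream), with 53.3 and 35.2 in the replicates. At swsn-6, an actin-related subunit, it was 81.95 (chrIV:5394780-5395039, 123 bp upstream), with 46.7 and 32.9. That peak was 106 bp upstream of perm-3, which is closer to it.

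The core subunit swsn-1 and the ATPase swsn-4 had weaker peaks. At swsn-1 the signal was 76.9 (chrV:20249754-20250013, 396 bp upstream), with 42.0 in replicate 1 and 34.6 in replicate 2. At swsn-4, the BRM homologue, it was 50.2 (chrIV:11125230-11125489, 664 bp upstream), with 29.0 and 21.4. The swsn-4 window held 2 optimal summits, the only case among the bound members, and the stronger one also lay in the window of spo-11, 498 bp upstream of that gene. At swsn-9, a bromodomain subunit, the pooled peak had a signal of 27.01, just under the lowest signal of the optimal list, 27.6. Replicate 2 placed it in its top list (rank 3172) and replicate 1 did not (rank 5315).

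Of the other remodelling ATPases, isw-1, the ISWI homologue, was bound, with a signal of 62.1 (chrIII:6710068-6710327, 98 bp upstream), 38.3 in replicate 1 and 23.3 in replicate 2. The Mi-2 paralogues let-418 and chd-3 had no peak of any strength in their windows. All 6 bound remodellers had their strongest peak in both replicates' top lists, as did 9 of the 10 bound writers and 7 of the 10 bound erasers. Of all bound genes 85.4% did.

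**Figure D3:**
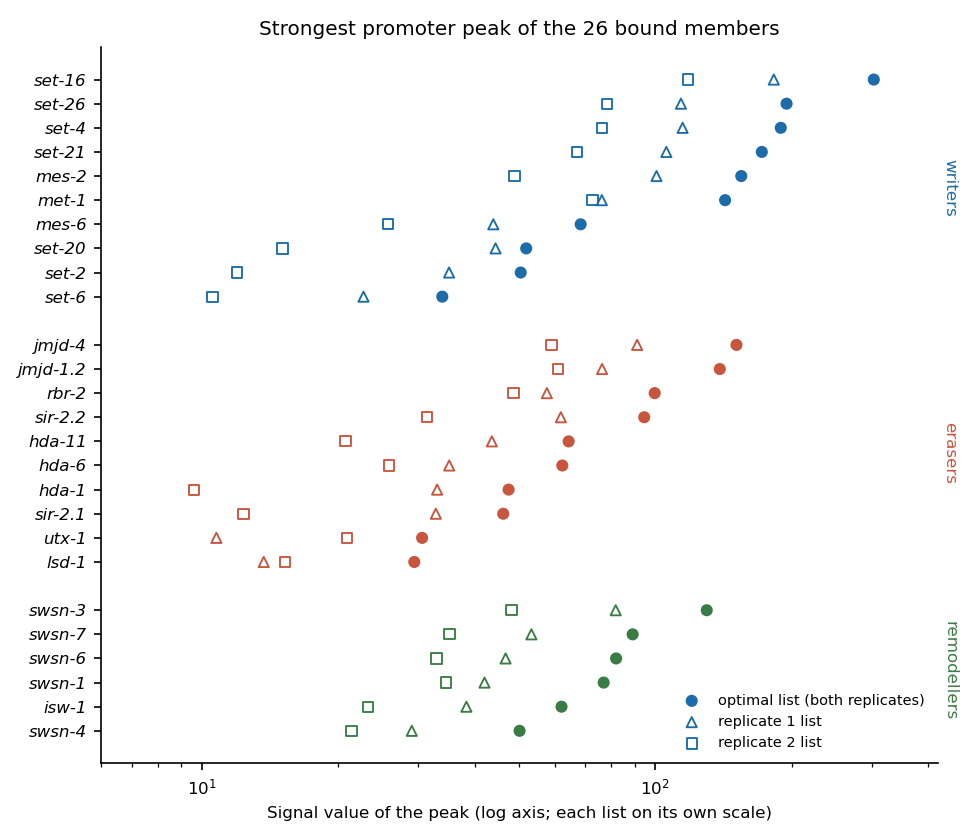
Signal of the strongest promoter peak of each bound member, on a log axis, in the optimal list (filled circles), in the list of replicate 1 (triangles) and in the list of replicate 2 (squares), each on its own scale. Replicate 2 lies below replicate 1 for every member but utx-1 and lsd-1, the 2 members that replicate 1 left out of its top list.

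Over the 26 peaks, which are all distinct, Spearman's rho between the replicates' signals was 0.888, a description across peaks that share the same 2 libraries and control. The 4 members whose peak was not in both top lists were hda-1, set-6, utx-1 and lsd-1, and none of these peaks was among the 1956 strongest of the optimal list.

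Beyond the optimal list, 13 further members had only a weaker peak in the pooled list of 16974 peaks, which the authors label as peaks and background. With these, 39 of 74 members (52.7%) had a summit of some strength, where 33.7% of all protein-coding genes did. The 13 were swsn-9, set-3, jmjd-3.1, set-17, swsn-2.2, hda-4, set-1, set-30, mes-3, set-10, sir-2.3, spr-5 and jmjd-1.1, with signals from 27.01 down to 10.1. By class, 8 of 10 remodellers, 15 of 24 erasers and 16 of 37 writers had a summit in the pooled list, so the order of the classes was as in the optimal list. The other 35 members had none in their windows.

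By the window rule every summit counted lies from 1000 bp upstream to 200 bp downstream of a 5' end. Distances are to the nearest 5' end of the gene. All 26 strongest summits at members were upstream of it, as were 3063 of the 3201 for all bound genes. The median distance at members was 185 bp, and 14 (53.8%) were within 200 bp. For all bound genes the median was 227 bp and the share within 200 bp was 45.1%. The strongest peak of 11 bound members (42.3%) also lay in another protein-coding gene's window, and 51.1% of all bound genes shared their peak in this way. For 6 members another gene's start was nearer to the strongest peak. When each summit counted only for the gene with the nearest start, 21 members stayed bound (28.4%, against 11.9% of all genes), and hda-1, jmjd-1.2, set-21, set-26 and swsn-6 did not. With summits that lay in a single gene's window, an alternative added after the data were seen, 15 members were bound (20.3%, against 7.93% of all genes).

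**Figure D4:**
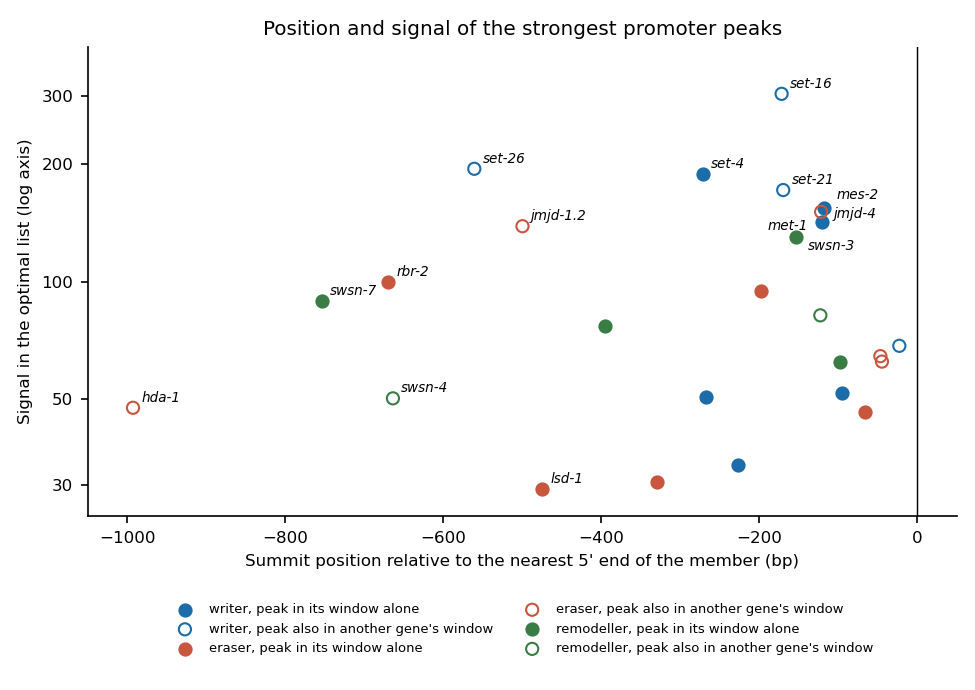
Position of the strongest summit relative to the nearest 5' end of the member, in bp, against its signal in the optimal list on a log axis, with open symbols for peaks that also lay in another protein-coding gene's window. Every summit is upstream, and the far ones include hda-1 at 993 bp, swsn-7 at 754 bp and rbr-2 at 670 bp.

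The share bound was highest, in members and in all genes, where the upstream neighbour was close or overlapping and on the opposite strand. A gene that overlapped the outermost 5' end was counted as an upstream neighbour at a gap of 0 bp, for members and for all genes. The order of the other arrangements differed between members and all genes. Of 14 members whose upstream neighbour lay within 1000 bp or overlapped on the opposite strand, 10 were bound (71.4%). Of the 4247 protein-coding genes so placed 33.6% were bound. The 10 include swsn-3, which lies inside the annotated span of cox-6B and is not part of a divergent pair with it. Of 22 members with an upstream gene on their own strand within 500 bp, 5 were bound (22.7%), against 10.8% of 4105 genes. Genes in tandem order are often transcribed together as operons in this species, and no operon annotation was used here. For 8 of the 17 unbound members in this arrangement the upstream gene was itself bound, as it was for 870 of the 3663 unbound protein-coding genes so placed. These were hda-2 behind swsn-7, set-19 behind set-20, sir-2.3 behind sir-2.2, set-14 behind npp-19, set-3 behind bud-31, sir-2.4 behind C06A5.3, spr-5 behind eif-3.J, and set-27 with cox-6B. The last is not a tandem pair, since set-27 lies inside the annotated span of cox-6B. In the first 3 of these pairs both genes are members and the bound one is upstream.

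With other neighbours, 5 of 21 members with a divergent gene farther off were bound (23.8%, against 13.9% of all genes so placed), and 6 of 17 with a same-strand gene farther off (35.3%, against 9.61%). The share of members was above that of all genes in each of the 4 arrangements. Genes with more annotated 5' ends have more windows. Among genes with a single 5' end, 16 of 47 members were bound (34.04%), against 13.03% of all genes. Of 19 members with 2 distinct 5' ends 5 were bound (26.3%, against 21.3%), and of 8 members with 3 or more 5 were bound (62.5%, against 28.4%).

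Bound members were unevenly spread over the chromosomes. On chromosome IV 9 of 12 members were bound (75.0%), against 15.2% of all genes there, and on chromosome III 5 of 11 (45.5%, against 24.5%). Of the 9 on chromosome IV, only rbr-2 and sir-2.1 had a strongest peak that lay in no other protein-coding gene's window. Another gene's start was nearer to the strongest peaks of jmjd-1.2, set-21, set-26, swsn-4 and swsn-6. On chromosome I only met-1 was bound, 1 of 11 members (9.09%), although 23.0% of all genes there were. The 10 unbound members on that chromosome include 5 of the 13 with a weaker pooled peak, namely swsn-9, swsn-2.2, mes-3, set-10 and spr-5. On chromosome II 3 of 13 were bound (23.1%, against 14.5% of all genes), on V 3 of 9 (33.3%, against 10.1%) and on X 5 of 18 (27.8%, against 14.2%). These counts are small and the spread was not tested.

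**Figure D5:**
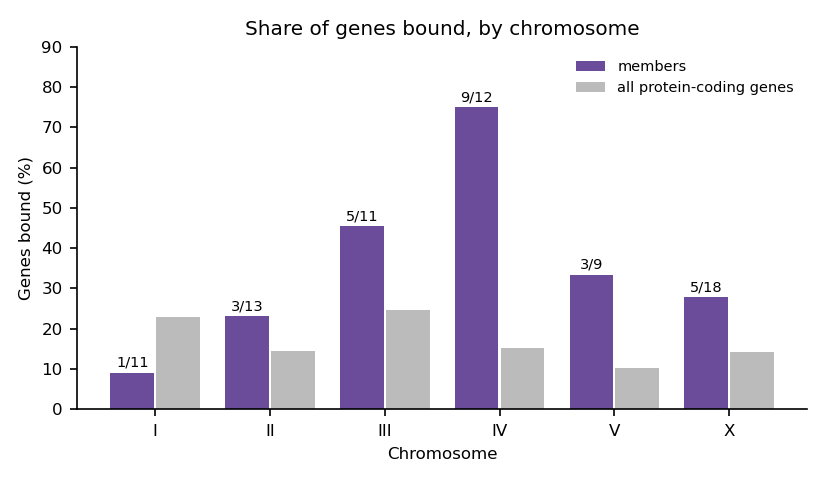
Percent of genes bound on each chromosome, for members (with the count above the bar) and for all protein-coding genes. Members stand above all genes on every chromosome except I, where 1 of 11 was bound.

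In gene bodies outside the members' own windows there were 3 optimal summits. Intronic sequence of set-18, which encodes a SMYD-type methyltransferase, held 2 of them, with signals of 74.5 (chrI:10593033-10593292) and 55.9 (chrI:10591597-10591856), both in the top lists of both replicates. Neither lay in the window of a protein-coding gene, and the first lay in those of the non-coding genes T22A3.11 and WBGene00014525. The other, with a signal of 40.7 (chrI:11912802-11913061), was in an exon of hda-3 and in the window of mag-1.

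Short sequences were counted within 100 bp of the members' summits and of all promoter peaks, which include those of the members, and the differences were not tested. GAGAGA occurred at 12 of the 26 summits (46.2%), at 40.4% of the 2479 optimal summits in protein-coding promoter windows, and in 14.2% of windows of the same length centred 200 bp upstream of all protein-coding genes. It was at 4 of 6 remodeller summits (swsn-7, swsn-6, swsn-1 and swsn-4), 5 of 10 writer summits and 3 of 10 eraser summits. GCGCAG occurred at 4 summits (15.4%, against 10.9% of promoter peaks and 2.60% of all promoters), those of set-21, jmjd-1.2, swsn-1 and utx-1. CACGTG, the E-box, occurred at 3 (11.5%, against 4.80% and 3.33%), those of met-1, swsn-3 and sir-2.2. TAATTA, a core that many homeodomain proteins bind, occurred at 2 (7.69%, against 4.96% and 11.8%), those of jmjd-4 and swsn-3. The sequences were counted on both strands, and different ones can overlap by at most 1 base. The median GC content of the members' windows was 44.3%, against 42.3% at all promoter peaks and 33.8% in all promoters.

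Other chromatin genes, taken from a list of 46 genes outside the name rule, had a higher share bound than the members, and that difference was not tested. Of the 46, 29 were bound (63.0%, exact 95% interval 47.5 to 76.8%), against 16.0% of all protein-coding genes. This list too was chosen with earlier results of these data known. Of 9 NuRD, CoREST and SIN3 subunit genes 7 were bound, led by lin-53, which encodes a histone-binding WD40 protein (signal 188), and mep-1 (90.2). Of 8 other remodelling genes 6 were bound, led by nurf-1, the partner of ISW-1 (147), and chd-7 (122). COMPASS subunits had 5 of 7 bound, led by ash-2 (130) and rbbp-5 (57.1), and acetyltransferases 5 of 7, led by cbp-1, the CBP and p300 homologue (249), and hat-1 (215). Readers and subunits of acetyltransferase complexes had 3 of 8 bound, led by epc-1 (195) and mrg-1 (141). The arginine and DOT1 methyltransferases had 2 of 5, dot-1.1 (147) and prmt-1 (64.6), and the H2A ubiquitin ligases 1 of 2, spat-3 (70.9).

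Partners of the members in complexes were picked out after their values were seen. The writer set-16 and the COMPASS subunit genes ash-2 and rbbp-5 had peaks, as did set-2, and 5 of the 7 listed COMPASS subunit genes were bound. Of the NuRD-type genes, hda-1, lin-53, mep-1, lin-40, egl-27 and dcp-66 were bound, while the Mi-2 ATPase genes let-418 and chd-3 were not. Of the 9 listed NuRD, CoREST and SIN3 subunit genes 7 were bound, and of all protein-coding genes 16.0% were. The hda-1 summit lay 993 bp upstream, closer to ril-1, and outside the top list of replicate 2. That of egl-27 lay 954 bp upstream, at rank 3496. The ISWI gene isw-1 and its partner gene nurf-1 were both bound.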

How the data were processed

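ChIP-seq peak lists of 2 biological replicates (1 group) on ce11 were used. Per the labels' deposited notes on file origin, the authors called peaks on each replicate and on both pooled, against the same control file, and derived the optimal list from these. Aligner, caller and IDR threshold: not given in the sources used here. Signal values per peak and −log10 q-values are as the authors deposited them. The −log10 q-value reached its ceiling of 3.82 in 83.6% of optimal peaks, so ranks follow signal and ties follow the q-value. The lists give no read counts, so depth is unknown. The ce10 lists were not used.

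Summits were assigned to Ensembl release 115 protein-coding genes with Python 3.11.15 and pandas 2.3.3. All peaks lay within the chromosome lengths of WBcel235. The assignment was checked on simulated summits. Replicates shared a peak at 1 bp of overlap. Shares have exact Clopper-Pearson intervals (scipy 1.17.1). No set test was made.

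Members, classes, groups and the list of 46 other chromatin genes were chosen with earlier results of these data known, as were the groups by mark and the short sequences counted. Every member is named, and of the 46 the 2 with the highest signal per group, beside complex partners of members named after their values were seen. Alternatives were windows of 500 and 2000 bp, the 1956 strongest peaks, each replicate alone, peak midpoints, the nearest or outermost 5' end, leaving out mes-1, sir-2.2 and sir-2.3, and reciprocal overlap of 50%. Another 3 were added after seeing the data: single-window summits, genes with 1 distinct 5' end, and peaks in both top lists.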

Additional observations from a re-analysis of the deposited data

How the results depend on the processing

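The count of bound members (26) was 22 with windows of 500 bp (13.1% of all genes) and 31 with 2000 bp (20.3% of all genes, 16.0% in the main setting), where set-1, set-5, set-27, set-30 and jmjd-2 were added. It was 18 with the 1956 strongest peaks, 21 by nearest start, 25 by the outermost 5' end and 26 by peak midpoints. With 1 replicate left out, counts ranged from 24 to 26 for members, 10 to 10 for writers, 8 to 9 for erasers and 6 to 7 for remodellers. Peak midpoints gave the same counts as summits for members, for each class and for all genes. Leaving out mes-1, sir-2.2 and sir-2.3 could not change the counts of writers or remodellers. Of 49 values over 13 alternatives, these included, 43 were within 1.5 times the main count. The others were erasers with those strongest peaks (6 of 24), summits in a single gene's window (15 members, 6 writers and 5 erasers), and genes with 1 distinct 5' end (16 members and 4 erasers). The last 2 alternatives were added after the data were seen. By construction they leave out peaks or genes, and the share of all genes was 7.93% and 13.03% under them, and 9.41% with the strongest peaks. At 50% reciprocal overlap 17 of 26 members had their peak in both top lists, against 22 at 1 bp. No paired analysis was possible because there is 1 group. With 10 remodellers the class shares have wide intervals, unknown depth limits what an unbound gene shows, and both replicates share 1 control.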
